A study of Homo sapiens with 40 samples.

Results

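The genes described here are CD180, its partner LY86 and 8 Toll-like receptor genes, TLR1, TLR2, TLR4, TLR5, TLR6, TLR7, TLR8 and TLR9. They were chosen by symbol as 10 rows of the 62754 listed in each of 3 tables of gene counts. CD180 was chosen because it was much lower after the QKI short hairpin RNA (shRNA), so for these 10 genes that contrast is given as a description, with no p-value.

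Quaking (QKI), an RNA-binding regulator of splicing and of messenger RNA stability, was depleted in cells named as lines of T-cell acute lymphoblastic leukaemia (T-ALL). RNA was sequenced from 40 libraries in 10 groups of 4. Jurkat cells, a standard T-ALL line, grown in 10% serum, were electroporated with a QKI siRNA or a non-targeting control (NTC) siRNA, and their RNA is labelled as total RNA. Cells labelled HPB-ALL, grown in 20% serum, were infected by centrifugation with virus carrying a QKI shRNA or an NTC shRNA. LOUCY, TALL-1, DND-41 and ALL-SIL in 10% serum and KARPAS-45 and HPB-ALL in 20% serum were left untreated, and their RNA, like that of the shRNA cells, is labelled polyadenylated. The labels give no dose, no time after delivery and no ligand for any receptor, and for the untreated lines they do not say whether replicates were separate cultures, so p-values measure the spread between these libraries, which may be technical there.

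Toll-like receptors are leucine-rich transmembrane proteins that sense microbial products. TLR2 pairs with TLR1 or TLR6 to sense lipoproteins, TLR4 senses lipopolysaccharide with MD-2 (the product of LY96), and TLR5 senses flagellin, whereas TLR7, TLR8 and TLR9 sense nucleic acids in endosomes and need the chaperone UNC93B1 to get there. CD180 resembles the outer part of TLR4 but lacks the signalling domain, sits at the cell surface with MD-1 (the product of LY86), and is known from B cells, macrophages and dendritic cells.

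Libraries held 68.4 to 134 M counts in Jurkat (M, 1e6), 81.0 to 135 M in the libraries labelled HPB-ALL and 44.1 to 84.0 M in the lines. QKI averaged 21.4 ± 4.22 CPM (counts per 1e6 counts) after siRNA and 148 ± 19.5 CPM with NTC siRNA in Jurkat (SD, n = 4 each), and 55.8 CPM after shRNA against 104 CPM with NTC shRNA in the libraries labelled HPB-ALL. Those log2 fold changes were -2.79 and -0.90 (edgeR quasi-likelihood test, adjusted p = 0.000129 and 1.1e-07). The knockdown libraries labelled HPB-ALL went against their label. The summed level of 8 T-cell markers was 0.632 to 0.802 CPM after QKI shRNA and 0.693 to 0.895 CPM with NTC shRNA, with 0 of 8 over 1 CPM, whereas in untreated HPB-ALL it was 2998 to 3818 CPM with 8 of 8 over 1 CPM. The summed level of 12 myeloid markers was 3033 to 3165 CPM after QKI shRNA and 3470 to 3632 CPM with NTC shRNA, against 14.6 to 33.5 CPM in untreated HPB-ALL. Over 1 CPM were 8 of 12 with QKI shRNA, 9 with NTC shRNA and 1 in untreated HPB-ALL. ELANE alone averaged 1713 CPM with QKI shRNA and 1650 CPM with NTC shRNA, while MPO, CD68 and S100A8 stayed under 1 CPM in both. Of the untreated lines, LOUCY had the highest myeloid sum, at 68.9 to 109 CPM with 6 of 12 over 1 CPM. In Jurkat and the untreated lines, 7 or 8 of the 8 T-cell markers passed 1 CPM. Since the T-cell markers go against their label, the 8 libraries with QKI shRNA or NTC shRNA are named here by that label (labelled HPB-ALL), apart from untreated HPB-ALL.

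The sequences that bear on the comparison with QKI are the places where the transcripts hold the letters QKI is known to prefer, ACUAAC or ACUAAU in RNA. In the longest coding transcript of each gene (GENCODE 29, GRCh38), read in the sense direction, CD180 held 1 ACTAAC and 1 ACTAAT, TLR2 1 of each, TLR4 4 ACTAAC and 3 ACTAAT, TLR7 and TLR8 2 ACTAAC and 1 ACTAAT each, TLR5 1 ACTAAC, TLR6 and TLR1 1 ACTAAT each, and LY86 and TLR9 none. Whether QKI binds these letters in the cells used, or acts through them, was not tested. A match was common in transcripts of like length. Either motif was found in 67.4% of transcripts near the length of CD180, 90.0% near that of TLR4, 56.8% near that of TLR2, 70.8% near that of TLR6 and 16.5% near that of LY86. The sites below are from CD180, TLR2, TLR6 and TLR4, the genes that were called and did not overlap between QKI shRNA and NTC shRNA. That comparison also chose CD180, so this pick only limits what is shown and nothing is read from it. For TLR2 and TLR4 only ACTAAC is shown, and capitals mark the motif.
CD180, 3′ UTR, chr5:67180218-67180247, minus strand: gaattacatcacACTAACaatgaaaggggc
CD180, 3′ UTR, chr5:67180329-67180358, minus strand: cagatggaaaatACTAATtgctgatttacc
TLR2, coding sequence, chr4:153704141-153704170, plus strand: ctgaaaaacttgACTAACattgatatcagt
TLR6, coding sequence, chr4:38828781-38828810, minus strand: tgcttacaactgACTAATattaaattgaat
TLR4, 3′ UTR, chr9:117717395-117717424, plus strand: agattaacaataACTAACaataaaattgaa
TLR4, 3′ UTR, chr9:117717562-117717591, plus strand: gataagtgaggaACTAACatacatacatga
TLR4, 3′ UTR, chr9:117720705-117720734, plus strand: ctcttgactcatACTAACaacaccccattt
TLR4, 3′ UTR, chr9:117723405-117723434, plus strand: aatggctccaccACTAACaggctgttgaac
TLR1 and TLR6 lie on the same strand at chr4:38790677-38856817 and chr4:38823715-38856817 (GRCh38), and 238 of the 2800 stretches of 50 bases in the longest TLR1 transcript (8.50%) also occur in that of TLR6. Reads from such stretches could be shared or lost, so the split between these 2 genes is uncertain.

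The promoters below are of CD180, its partner and TLR4, whose levels are compared with those of SPI1, which codes for the ETS factor PU.1 of myeloid and B cells. They run from 250 bases before to 50 bases after the start (RefSeq, GRCh38.p14, 8 of the 10 genes matched). Capitals mark GAGGAA on either strand (TTCCTC when on the other strand), a core bound by PU.1. It was found 4 times for TLR4, 2 times each for LY86 and TLR9, 1 time for TLR6 and 0 times for CD180, TLR2, TLR5 and TLR8, and at least once in 27.9% of 35116 promoters. TTGCNNCAA, letters bound by C/EBP factors, was in none of the 8 promoters and in 1.98% of all.
CD180, chr5:67196750-67197049, minus strand: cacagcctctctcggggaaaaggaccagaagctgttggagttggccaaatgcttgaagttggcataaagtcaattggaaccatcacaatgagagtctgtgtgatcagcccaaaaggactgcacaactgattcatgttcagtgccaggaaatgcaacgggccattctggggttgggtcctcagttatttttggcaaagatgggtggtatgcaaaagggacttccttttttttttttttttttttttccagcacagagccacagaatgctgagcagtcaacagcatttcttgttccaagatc
LY86, chr6:6588470-6588769, plus strand: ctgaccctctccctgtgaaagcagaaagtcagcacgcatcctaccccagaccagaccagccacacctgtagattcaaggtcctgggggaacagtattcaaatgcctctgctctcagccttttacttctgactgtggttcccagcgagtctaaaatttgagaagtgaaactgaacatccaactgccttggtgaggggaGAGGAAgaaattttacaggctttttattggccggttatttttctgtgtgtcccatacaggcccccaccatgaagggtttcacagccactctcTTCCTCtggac
TLR4, chr9:117704153-117704452, plus strand: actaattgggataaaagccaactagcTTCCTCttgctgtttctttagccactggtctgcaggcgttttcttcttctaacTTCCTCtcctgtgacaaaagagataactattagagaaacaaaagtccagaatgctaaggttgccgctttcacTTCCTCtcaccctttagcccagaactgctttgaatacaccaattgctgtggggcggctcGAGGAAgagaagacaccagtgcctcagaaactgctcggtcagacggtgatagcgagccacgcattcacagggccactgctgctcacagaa

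CD180 was measured in few groups. It had 3.68, 3.505, 3.73 and 3.89 CPM in the 4 libraries with QKI shRNA, against 9.41, 9.04, 8.66 and 9.31 CPM with NTC shRNA. Every QKI shRNA library lay below every NTC shRNA library, by more than the spread within either group. The log2 fold change was -1.30 ± 0.06 (SE), or 0.407 of the NTC shRNA level, and 16 of 17974 genes tested had a lower one. The groups' means were 3.70 ± 0.157 and 9.10 ± 0.336 CPM (SD, n = 4 each). In bulk RNA, fewer cells with a transcript and less of it per cell cannot be told apart.

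Among the untreated lines CD180 was a LOUCY transcript. LOUCY had 16.5, 12.3, 9.59 and 12.3 CPM. ALL-SIL had 0.0199 to 0.109 CPM and DND-41 0.0342 to 0.113 CPM, from 1 to 6 counts a library. CD180 was at 0 in all libraries of KARPAS-45, untreated HPB-ALL and TALL-1, and in all 8 Jurkat libraries. LOUCY was thus at least 276-fold higher than KARPAS-45, 214-fold higher than untreated HPB-ALL and 218-fold higher than TALL-1, taking 3 counts in a library as the most that a count of 0 allows; such floors cover counting error only. LOUCY exceeded ALL-SIL, the next line, with a log2 fold change of 7.39 (edgeR quasi-likelihood test, adjusted p = 2.33e-11). ALL-SIL and DND-41 did not differ beyond their spread (adjusted p = 0.868). LOUCY had no QKI counts in any library, and KARPAS-45, where CD180 was at 0, was next lowest in QKI at 6.70 CPM. Whether the QKI level bears on CD180 was not tested, and LOUCY and KARPAS-45 differed in 74.2% of all genes tested (edgeR).

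LY86, whose product MD-1 holds CD180 at the surface, had 18.5, 18.7, 18.6 and 17.9 CPM with QKI shRNA, against 19.3, 22.4, 19.2 and 23.5 CPM with NTC shRNA. The QKI shRNA libraries were all below the NTC shRNA libraries, though the gap to the lowest was small. The log2 fold change was -0.19 ± 0.06 (SE), and the fit over all genes did not call it. Reads of LY86-AS1, which lies opposite LY86, came to 486 counts in those libraries against 18506 for LY86, and whether counting used strand was not stated in the labels.

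Receptor and partner were not found together in the untreated lines. LOUCY, with the most CD180, had 0 to 3 counts of LY86 in a library. ALL-SIL had LY86 at 1.91, 2.15, 1.31 and 2.85 CPM, and almost no CD180. LY86 was at 0 in KARPAS-45, untreated HPB-ALL, TALL-1 and Jurkat, so ALL-SIL was at least 34.7-fold higher than untreated HPB-ALL. DND-41 had 0 to 3 counts. ALL-SIL exceeded DND-41, the next line, with a log2 fold change of 5.87 (edgeR quasi-likelihood test, adjusted p = 5.39e-08). The antisense LY86-AS1 had 945 counts over the untreated lines, against 414 counts of LY86 in ALL-SIL. In Jurkat, where LY86 was at 0, LY86-AS1 had 740 counts. The part of LY86-AS1 reads in the LY86 counts of ALL-SIL was not tested. Per kilobase of exon, LY86 was above CD180 in the libraries labelled HPB-ALL, at 14.7 against 0.653 CPM per kb with QKI shRNA and 16.8 against 1.61 CPM per kb with NTC shRNA.

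**Figure D1:**
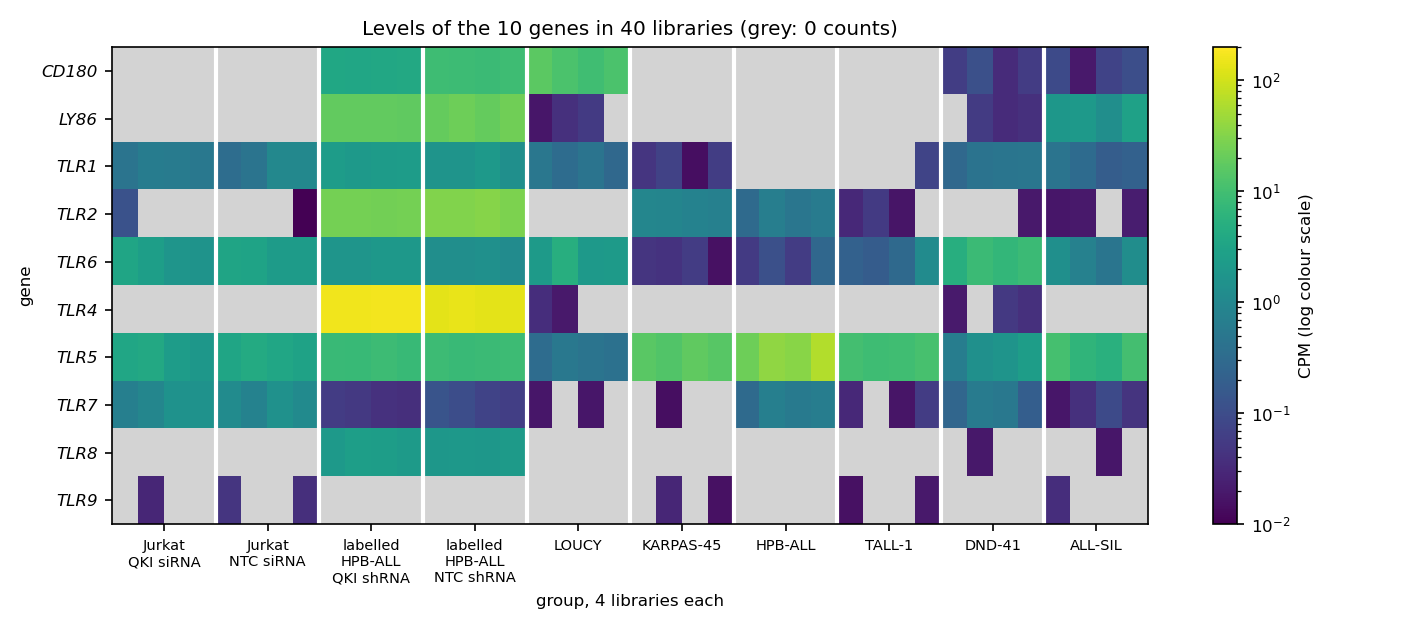
CPM of the 10 genes (rows) in the 40 libraries (columns, 4 to a group), on a log colour scale with 0 counts in grey. TLR4 and TLR8 are coloured almost only in the 8 libraries labelled HPB-ALL. CD180 is also coloured in LOUCY and, at low levels, in DND-41 and ALL-SIL, and TLR5 in all 10 groups.

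TLR4 was measured in the libraries labelled HPB-ALL and barely elsewhere. It had 159, 161, 165 and 171 CPM with QKI shRNA, against 133, 143, 134 and 135 CPM with NTC shRNA. All QKI shRNA libraries were above all NTC shRNA libraries. The log2 fold change was 0.27 ± 0.04 (SE), opposite in sign to that of CD180. Both proteins have a small secreted partner of the same family, and per kilobase TLR4 was at 12.4 CPM per kb with QKI shRNA and 10.3 CPM per kb with NTC shRNA, next below LY86 among the 10 genes.

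TLR4 was at 0 in Jurkat, KARPAS-45, untreated HPB-ALL, TALL-1 and ALL-SIL, and LOUCY and DND-41 had 3 and 6 counts in all. The QKI shRNA libraries were at least 2780-fold above untreated HPB-ALL, although both carry the same line's name; tables were normalized separately, so levels across them are set side by side without a test. LY96, whose product MD-2 binds lipopolysaccharide for TLR4, was spread differently. It averaged 0.809 ± 0.0646 CPM with QKI shRNA and 0.787 ± 0.0910 CPM with NTC shRNA (SD, n = 4 each), and among the lines with TLR4 at 0 it ran over 4.77 ± 1.69 CPM in ALL-SIL, 2.33 ± 0.651 CPM in untreated HPB-ALL, 1.28 ± 0.210 CPM in TALL-1 and 0.314 ± 0.0618 CPM in KARPAS-45. CD14, which hands lipopolysaccharide to TLR4, averaged 0.0855 CPM with QKI shRNA and 0.147 CPM with NTC shRNA (log2 fold change -0.82 ± 0.32 SE, edgeR adjusted p = 0.0814).

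**Figure D2:**
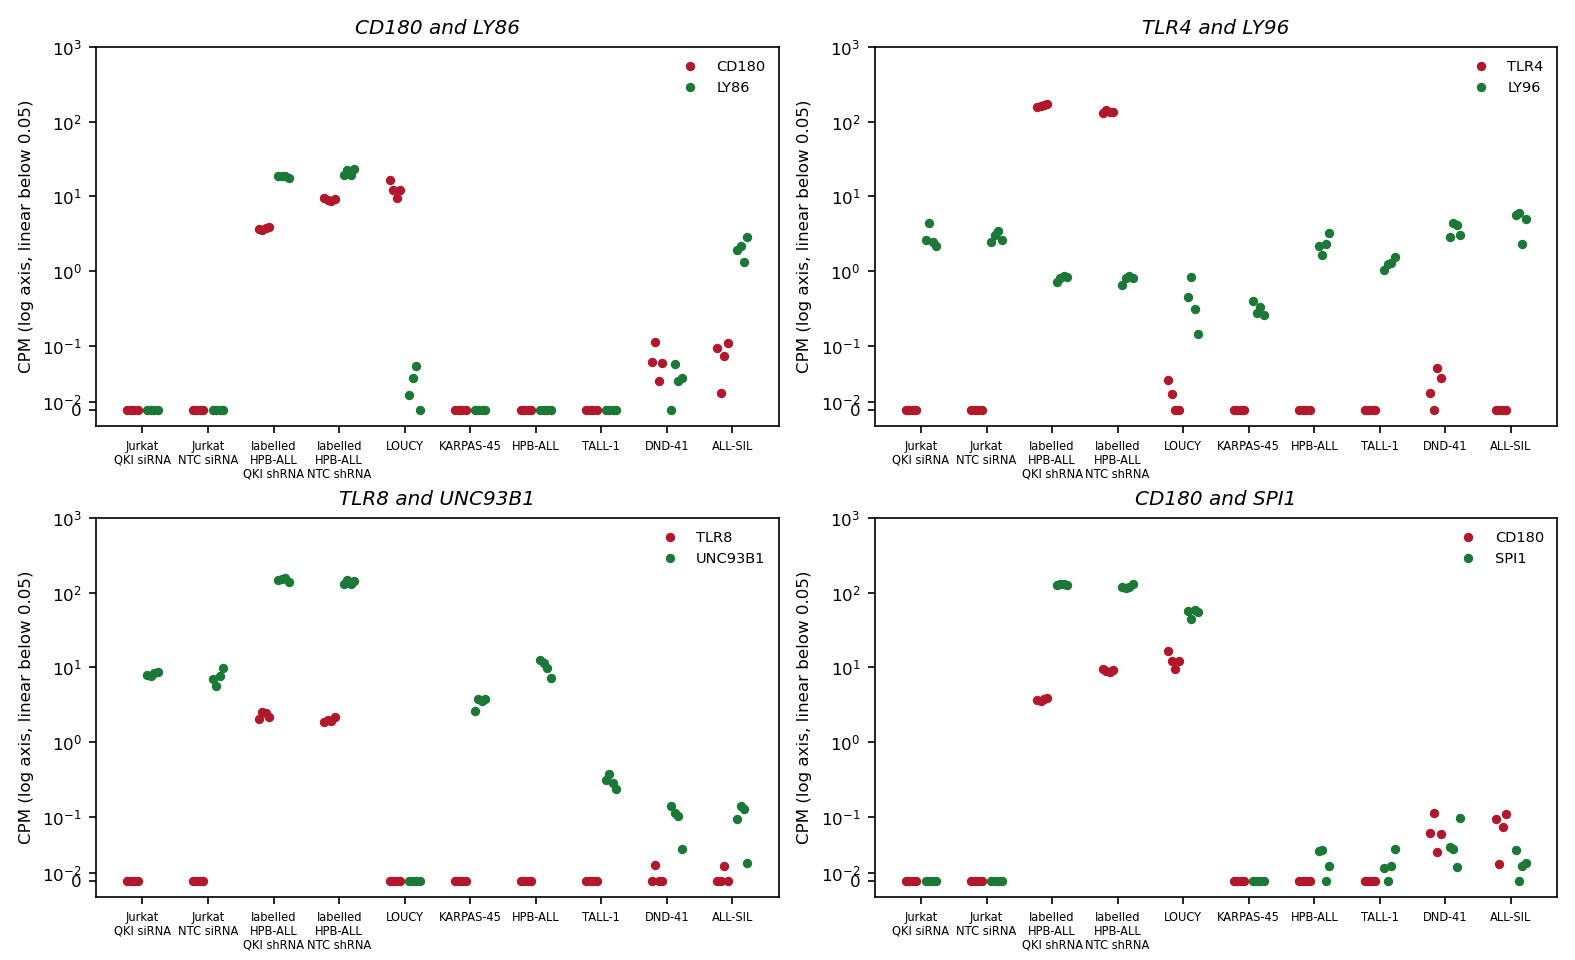
CPM per library (log axis, linear below 0.05) of 4 pairs over the 10 groups: CD180 and LY86, TLR4 and LY96, TLR8 and the endosomal chaperone UNC93B1, CD180 and SPI1. LY86 is near 0 in LOUCY, where CD180 is highest, LY96 is present in every group, and SPI1 is high in the 3 groups where CD180 passes 1 CPM.

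TLR2, the lipoprotein receptor, had 25.3, 24.8, 23.9 and 24.8 CPM with QKI shRNA, against 30.5, 30.2, 33.0 and 28.6 CPM with NTC shRNA. All QKI shRNA libraries were below all NTC shRNA libraries, and the log2 fold change was -0.31 ± 0.05 (SE). TLR6, a partner of TLR2, went the other way. It had 1.77, 1.75, 1.93 and 1.96 CPM with QKI shRNA, against 1.35, 1.34, 1.45 and 1.21 CPM with NTC shRNA, with a log2 fold change of 0.47 ± 0.09 (SE) and no overlap. TLR1, the other partner, had 2.41, 2.03, 2.27 and 2.37 CPM with QKI shRNA, against 1.67, 1.69, 2.14 and 1.37 CPM with NTC shRNA. The TLR1 groups overlapped in 1 NTC shRNA library, and the log2 fold change was 0.39 ± 0.12 (SE).

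TLR5 had 8.07, 7.98, 8.72 and 7.94 CPM with QKI shRNA, against 8.75, 8.29, 8.47 and 8.83 CPM with NTC shRNA. The groups overlapped, and the log2 fold change was -0.07 ± 0.05 (SE). TLR8, the endosomal sensor of single-stranded RNA, had 2.06, 2.56, 2.47 and 2.17 CPM with QKI shRNA, against 1.86, 1.97, 1.93 and 2.19 CPM with NTC shRNA. These groups overlapped too, and the log2 fold change was 0.23 ± 0.09 (SE). TLR7, which also senses single-stranded RNA, had 0.0377 to 0.0585 CPM with QKI shRNA and 0.0630 to 0.129 CPM with NTC shRNA, from 24 and 42 counts in all. TLR7 did not pass the filter on low counts, and TLR9, the sensor of unmethylated DNA, was at 0 in all 8 libraries.

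Of the 10 genes, 8 passed the filter in this comparison. The fit over all genes called 5 of them at an adjusted p under 0.05, with TLR1, TLR4 and TLR6 higher and CD180 and TLR2 lower after QKI shRNA, where it called 23.2% of all 17974 genes, 12.8% as higher and 10.4% as lower. Of these 8, groups did not overlap for TLR4 and TLR6, which were higher, and CD180, LY86 and TLR2, which were lower. Of all 17974 genes, 14.5% and 11.7% did so. TLR7, which did not pass the filter, also lay lower without overlap. Since this contrast chose CD180, nothing is read from these counts. The median size of the log2 fold change over all called genes was 0.23, and that of CD180 alone among the 10 went past 1.

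**Figure D3:**
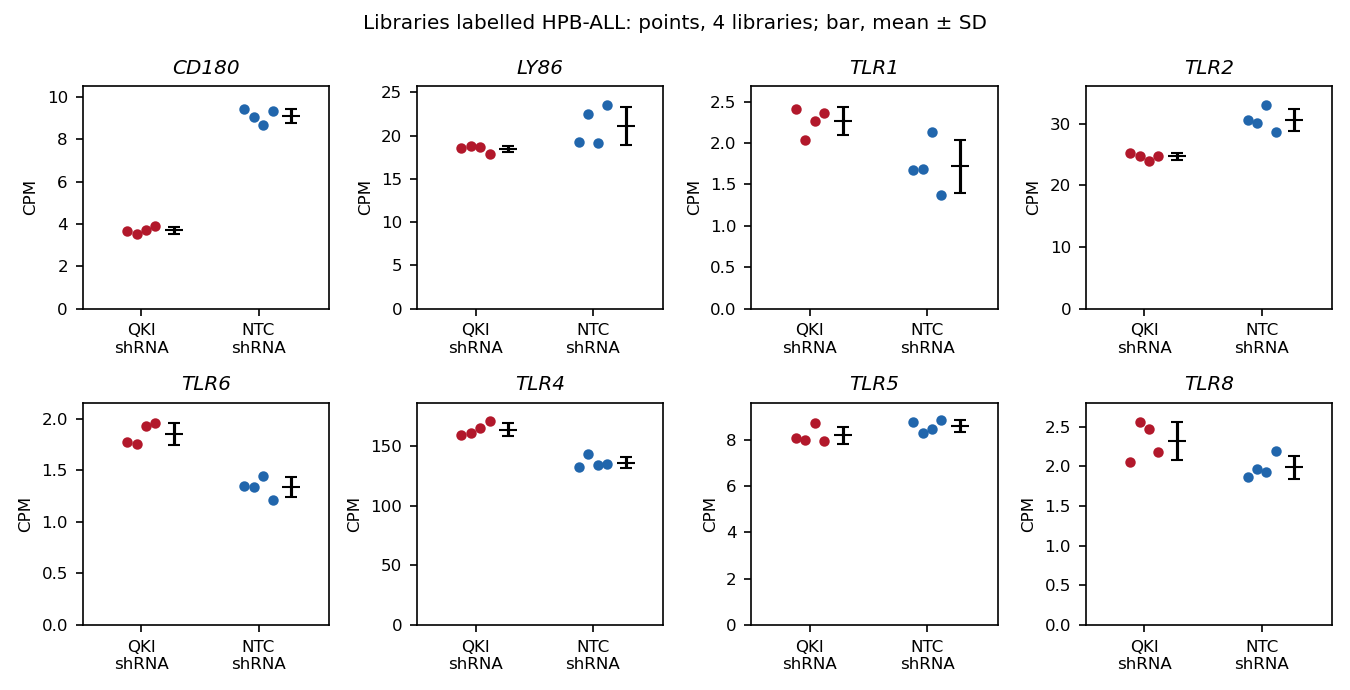
CPM of the 8 genes that passed the filter in the libraries labelled HPB-ALL, with 4 points per group, QKI shRNA left of NTC shRNA, and the mean ± SD beside them. The CD180 groups are farthest apart relative to their spread, TLR4 and TLR6 lie above and TLR2 and LY86 below NTC shRNA, and TLR1, TLR5 and TLR8 overlap.

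Markers of myeloid, B and dendritic cells moved in the same comparison, where the fit called 23.2% of all 17974 genes, 10.4% as lower. Of the 12 myeloid markers 11 were tested, and 6 fell after QKI shRNA, among them LYZ (lysozyme, log2 fold change -0.71, edgeR adjusted p = 7.94e-06) and AZU1 (azurocidin of granules, -0.47, adjusted p = 2.11e-05), and none rose. The call of ITGAM, an integrin chain, was lost with the block (adjusted p = 0.0832), with no filter on low counts (adjusted p = 0.181) and in 5 fits without 1 library (adjusted p up to 0.141). Of the 4 B-cell markers tested, CD22 fell (-0.53, adjusted p = 0.000189), as did CD79A (-0.33, adjusted p = 0.0256), and none rose. The CD79A call was lost with the replicate number as a block (adjusted p = 0.0708) and without NTC shRNA replicate 4 or QKI shRNA replicate 4 (adjusted p up to 0.0636). MS4A1, which codes for CD20, was at 0 in both groups. The summed level of the 8 B-cell markers was 22.2 to 22.8 CPM with QKI shRNA and 23.0 to 24.7 CPM with NTC shRNA. Of the 4 dendritic-cell markers tested, PLD4 fell (-0.20, adjusted p = 0.0200; 0.0526 without NTC shRNA replicate 2) and none rose, with a summed level of 27.7 to 29.02 CPM after QKI shRNA and 27.9 to 32.0 CPM with NTC shRNA. The part of these shifts in the values of the 10 genes was not tested.

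In Jurkat, where the genes were not chosen on the contrast, 4 of the 10 passed the filter and none was called. TLR5 had 3.54, 4.02, 2.41 and 1.90 CPM with QKI siRNA, against 3.43, 4.22, 3.504 and 3.05 CPM with NTC siRNA. TLR6 had 3.36, 2.53, 1.78 and 1.601 CPM with QKI siRNA, against 3.27, 3.16, 2.28 and 2.26 CPM with NTC siRNA. The groups of both genes overlapped, with log2 fold changes of -0.26 ± 0.25 and -0.24 ± 0.27 (SE; edgeR quasi-likelihood test, adjusted p = 1 for each). TLR1 averaged 0.557 ± 0.0847 CPM with QKI siRNA and 0.704 ± 0.357 CPM with NTC siRNA, and TLR7 1.18 ± 0.433 CPM with QKI siRNA and 1.16 ± 0.286 CPM with NTC siRNA (SD, n = 4 each). Their log2 fold changes were -0.34 ± 0.40 and 0.03 ± 0.33 (SE, edgeR adjusted p = 1 for each).

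The groups of each overlapped, as they did for all but 1.07% of genes. The lowest unadjusted p of the 4 genes was 0.327, and none had one under 0.05. DESeq2 and limma-voom called 0 of them as well. Over all 21296 genes tested in Jurkat the fit called 1, or 0.0047%, which was QKI itself, and 186 genes had an unadjusted p under 0.05. With the replicate number as a block it called 9 genes, or 0.0423%, and still none of the 4 receptors, whose lowest adjusted p was then 0.741. TLR2 had 13 counts (0.123 CPM) in 1 QKI siRNA library, 1 count in 1 NTC siRNA library and 0 in the other 6. CD180, LY86, TLR4 and TLR8 were at 0 in all 8 libraries, so in Jurkat nothing could be measured of CD180, the gene with the lowest log2 fold change in the shRNA comparison among the 8 of the 10 that were tested there.

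Across the 6 untreated lines 7 of the 10 genes passed the filter, and all 7 differed among lines (edgeR F test over 24 libraries, adjusted p from 1.67e-14 for CD180 to 2.76e-08 for TLR1). The same test called 98% of 20348 genes, so that count says little of these receptors. TLR5, TLR6 and CD180 were each led by a different line.

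TLR5 was highest in untreated HPB-ALL, with 22.7, 39.2, 34.1 and 63.9 CPM, followed by KARPAS-45 with 15.6, 13.5, 17.6 and 15.5 CPM. TALL-1 had 10.6, 9.10, 9.70 and 11.3 CPM, and ALL-SIL had 10.7, 6.46, 5.37 and 10.4 CPM. DND-41 had 0.666 to 2.43 CPM and LOUCY 0.326 to 0.526 CPM. No HPB-ALL library overlapped KARPAS-45, while the TALL-1 libraries lay inside the range of ALL-SIL or just past it. HPB-ALL exceeded KARPAS-45 with a log2 fold change of 1.36 (edgeR adjusted p = 0.000112). KARPAS-45 did not pass the threshold against TALL-1 (0.62, adjusted p = 0.0504), and it did so when DND-41 replicate 1 or 4 or HPB-ALL replicate 1 or 4 was left out (lowest adjusted p 0.0258). It also passed with RLE size factors (adjusted p = 0.0397), with no filter on low counts (adjusted p = 0.0266) and with the replicate block (adjusted p = 0.0343). TALL-1 and ALL-SIL did not differ beyond their spread (adjusted p = 0.376). ALL-SIL was above DND-41 (adjusted p = 3.33e-07) and DND-41 above LOUCY (adjusted p = 5.60e-05). TLR5 was over 1 CPM in 9 of the 10 groups, more than any other of the genes.

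TLR6 was highest in DND-41, with 4.90, 8.66, 7.07 and 8.40 CPM, and next in LOUCY, with 2.19, 4.91, 2.08 and 2.17 CPM. LOUCY replicate 4 stood above the lowest DND-41 library, and the other LOUCY libraries stood well below it. DND-41 exceeded LOUCY with a log2 fold change of 1.36 (edgeR adjusted p = 0.00739), and LOUCY exceeded ALL-SIL, at 0.474 to 1.39 CPM, with 1.52 (adjusted p = 0.00452). TALL-1 had 0.218, 0.176, 0.301 and 1.20 CPM, with replicate 4 apart from the rest. That library also stood apart from the other TALL-1 libraries as a whole. ALL-SIL did not pass the threshold against TALL-1 (adjusted p = 0.0667), and it did so without TALL-1 replicate 4 (adjusted p = 0.000417), ALL-SIL replicate 3 or HPB-ALL replicate 4. It also passed by limma-voom (adjusted p = 0.0117), with no filter on low counts (adjusted p = 0.0324) and with the replicate block (adjusted p = 0.0123). TALL-1 exceeded untreated HPB-ALL (adjusted p = 0.00949), but not without TALL-1 replicate 4 (adjusted p = 0.175). HPB-ALL had 0.0535 to 0.274 CPM, from 27 counts in all, and KARPAS-45 had 1 to 4 counts of TLR6 in a library. HPB-ALL did not pass the threshold against KARPAS-45 (adjusted p = 0.0906), though it did by limma-voom (adjusted p = 0.0408) and without TALL-1 replicate 4 (adjusted p = 0.0370).

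TLR1 followed TLR6 only in part, with 0.420 ± 0.0948 CPM in DND-41, 0.394 ± 0.103 CPM in LOUCY and 0.291 ± 0.118 CPM in ALL-SIL (SD, n = 4 each). These 3 lines did not differ beyond their spread (edgeR adjusted p = 0.875 and 0.372 between neighbours). TLR1 was lower in KARPAS-45, at 0.0144 to 0.0714 CPM (adjusted p = 0.000203 for ALL-SIL over KARPAS-45), was found in 1 TALL-1 library only and was at 0 in HPB-ALL. KARPAS-45 did not pass the threshold against TALL-1 (adjusted p = 0.156), and it did so by limma-voom (adjusted p = 0.00385) and without TALL-1 replicate 4 (adjusted p = 0.00182).

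TLR2 was highest in other lines than its partners TLR1 and TLR6, which had few counts there. KARPAS-45 had 0.941, 0.914, 0.820 and 0.736 CPM, HPB-ALL had 0.303, 0.692, 0.493 and 0.621 CPM, and the other 4 lines had 0 to 3 counts in a library. KARPAS-45 lay above HPB-ALL with no overlap and a log2 fold change of 0.69 at the edge of the threshold (edgeR adjusted p = 0.0488). That call was lost in 19 of the 24 fits that each left out 1 library (adjusted p 0.0516 to 0.175), and among those fits it was kept without LOUCY replicate 4, HPB-ALL replicate 2 or 4, TALL-1 replicate 4 or ALL-SIL replicate 3. It was also lost by limma-voom (adjusted p = 0.133) and with no filter on low counts (adjusted p = 0.0804).

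Of the nucleic acid sensors, TLR7 was the one measured in the untreated lines. HPB-ALL had 0.303, 0.729, 0.591 and 0.675 CPM and DND-41 had 0.262, 0.623, 0.530 and 0.194 CPM, and these lines overlapped (edgeR adjusted p = 0.287). ALL-SIL, next in order, had 0.0185 to 0.0912 CPM and lay below DND-41 (adjusted p = 3.94e-05). TALL-1, LOUCY and KARPAS-45 had 0 to 3 counts in a library. In Jurkat TLR7 was near 1 CPM, above every untreated line as set side by side. TLR8 had 1 count in DND-41, 1 in ALL-SIL and 0 in the other 4 lines, and TLR9 had at most 3 counts summed over the libraries of any line.

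UNC93B1, which carries the endosomal receptors, averaged 149 ± 8.31 CPM with QKI shRNA and 139 ± 10.4 CPM with NTC shRNA in the libraries labelled HPB-ALL (SD, n = 4 each; log2 fold change 0.11, edgeR adjusted p = 0.199). In the untreated lines it was highest in HPB-ALL, at 10.3 ± 2.24 CPM, where TLR7 was also highest. It was at 0 in LOUCY and 0.0989 ± 0.0432 CPM in DND-41, although DND-41 and HPB-ALL did not differ beyond their spread in TLR7.

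Of the 15 pairs of lines, CD180 and LY86 differed in 11 each, TLR5 and TLR6 in 13 each, TLR1 and TLR2 in 10 each and TLR7 in 9 (edgeR, adjusted over all genes within a pair). Over all genes the 15 pairs together called 65.2%, from 52% to 76.2% in a pair. The CD180 pairs include ALL-SIL and DND-41, with 15 and 14 counts in all, each against KARPAS-45, HPB-ALL and TALL-1, at 0. The LY86 pairs include LOUCY and DND-41, with 6 and 7 counts in all, against the same lines at 0. Those calls rest on values near the floor. Per kilobase, the genes that passed 1 CPM per kb in an untreated line were TLR5, at most 5.15 CPM per kb in HPB-ALL, CD180, at 2.24 CPM per kb in LOUCY, LY86, at 1.64 CPM per kb in ALL-SIL, and TLR6, at 1.20 CPM per kb in DND-41. TLR5 passed it also in KARPAS-45 (2.01 CPM per kb), TALL-1 (1.31 CPM per kb) and ALL-SIL (1.06 CPM per kb). The TLR5 value rests on 7.77 kb of exons in all, where its longest coding transcript holds 4.27 kb.

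Signalling from these receptors runs through adaptors such as MYD88, kinases such as IRAK1, the NF-κB and IRF factors they release, and inhibitors that the pathway also induces. In 7 lists of such genes, 91 of 106 were tested in the libraries labelled HPB-ALL, and 18 rose and 8 fell after QKI shRNA (28.6%, against 23.2% of all genes). Their median log2 fold change was 0.03, against -0.01 over all genes. In Jurkat 82 were tested with edgeR and none was called.

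Among the adaptors, PIK3AP1, which ties Toll-like receptors to phosphoinositide 3-kinase, rose to 408 ± 11.98 CPM after QKI shRNA, against 319 ± 21.1 CPM with NTC shRNA (SD, n = 4 each; log2 fold change 0.35 ± 0.05 SE, edgeR adjusted p = 0.000438). SARM1, an adaptor with NADase activity, fell to 4.67 ± 0.0564 CPM, against 6.14 ± 0.789 CPM with NTC shRNA (-0.40 ± 0.08, adjusted p = 0.00468). The other 4 of 6 tested, MYD88, TIRAP, TICAM1 and TICAM2, did not pass the test, though 4 of the 6 adaptors were called without QKI shRNA replicate 2. MYD88 averaged 119 ± 5.82 CPM with QKI shRNA and 111 ± 2.96 CPM with NTC shRNA, and was present in every untreated line, from 43.9 CPM in untreated HPB-ALL to 119 CPM in LOUCY.

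Of 22 kinases and ligases tested, 7 rose and 1 fell, or 36.4%, with a median log2 fold change of 0.06. IKBKE, a kinase of IRF factors, averaged 42.9 ± 1.17 CPM with QKI shRNA and 34.3 ± 1.16 CPM with NTC shRNA (SD, n = 4 each; log2 fold change 0.32 ± 0.04 SE, edgeR adjusted p = 0.00018). IRAK1, the kinase next to MYD88, averaged 754 ± 31.1 CPM with QKI shRNA and 621 ± 34.4 CPM with NTC shRNA (0.28 ± 0.05, adjusted p = 0.0021). PELI2, a ubiquitin ligase of IRAK proteins, and RIPK1, a kinase downstream of TICAM1, rose less (0.17 and 0.18, adjusted p = 0.00841 and 0.0101). LYN and BTK, kinases through which CD180 is known to signal in mouse B cells, did not pass the test (adjusted p = 0.928 and 0.294). LYN averaged 172 CPM with QKI shRNA and 171 CPM with NTC shRNA, and BTK 352 CPM with QKI shRNA and 367 CPM with NTC shRNA. LOUCY had 162 ± 41.8 CPM of LYN and 77.6 ± 5.85 CPM of BTK, whereas no other untreated line averaged over 0.882 CPM of LYN or 1.24 CPM of BTK.

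Of 14 inhibitors of the pathway, 5 rose and none fell, or 35.7%, with a median log2 fold change of 0.10; 3 were called without NTC shRNA replicate 1 or 4 or QKI shRNA replicate 2. NFKBIE, which holds NF-κB in the cytoplasm, averaged 38.5 ± 0.572 CPM with QKI shRNA and 32.3 ± 0.386 CPM with NTC shRNA (SD, n = 4 each; log2 fold change 0.26 ± 0.03 SE, edgeR adjusted p = 0.000338). NFKBIB, another such inhibitor, and TNIP2, a partner of the deubiquitinase TNFAIP3, rose by like amounts (0.18 and 0.27, adjusted p = 0.00622 and 0.00988). TOLLIP, which binds IRAK1, rose by 0.18 (adjusted p = 0.0257), a call that was lost without NTC shRNA replicate 1 or 4 or QKI shRNA replicate 1, 2 or 3 (adjusted p up to 0.0641). NFKBIA and TNFAIP3, the inhibitors that NF-κB induces most directly, did not pass the test (-0.08 and -0.01, adjusted p = 0.246 and 0.943).

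Of 14 genes that receptor signalling induces, 5 fell and none rose, or 35.7%, with a median log2 fold change of -0.21; 3 were called without NTC shRNA replicate 1 or QKI shRNA replicate 4. CCL3, a chemokine, averaged 1.41 ± 0.131 CPM with QKI shRNA and 2.10 ± 0.240 CPM with NTC shRNA (SD, n = 4 each; log2 fold change -0.58 ± 0.10 SE, edgeR adjusted p = 0.00195). CCL2, a chemokine for monocytes, averaged 2.80 ± 0.209 CPM with QKI shRNA and 3.805 ± 0.307 CPM with NTC shRNA (-0.44 ± 0.08, adjusted p = 0.00243). CD86, a costimulatory protein, fell by 0.22 on the log2 scale (adjusted p = 0.00438). NFKBIZ, a nuclear cofactor of NF-κB, fell by 0.36 (adjusted p = 0.0286), a call that was lost without NTC shRNA replicate 1 or 3 or QKI shRNA replicate 3 or 4 (adjusted p up to 0.0858). TNF averaged 2.58 ± 0.494 CPM with QKI shRNA and 3.46 ± 0.738 CPM with NTC shRNA and did not pass the test (-0.44, adjusted p = 0.0575), though it did with the replicate number as a block (adjusted p = 0.00961), as did CXCL8 (adjusted p = 0.0129, and 0.0990 without the block). IL1B did not pass the test (-0.20, adjusted p = 0.0700). No ligand was added per the labels, so these are levels without a stated stimulus.

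Of 14 partners and chaperones of the receptors, 1 rose and 1 fell, or 14.3%; 4 were called without NTC shRNA replicate 1, and 1 without NTC shRNA replicate 3 or QKI shRNA replicate 3. HSP90B1, the endoplasmic reticulum chaperone that folds Toll-like receptors, averaged 580 ± 13.0 CPM with QKI shRNA and 684 ± 30.6 CPM with NTC shRNA (SD, n = 4 each; log2 fold change -0.24 ± 0.04 SE, edgeR adjusted p = 0.00221). NRROS, a leucine-rich protein known to hold back Toll-like receptors in mouse, rose by 0.18 (adjusted p = 0.0313), a call kept only without NTC shRNA replicate 4 or QKI shRNA replicate 2 (adjusted p otherwise up to 0.0817). Of 10 NF-κB and IRF factors, IRF1 and REL rose (0.16 and 0.13, adjusted p = 0.0354 and 0.0493), or 20%. The IRF1 call was kept only without QKI shRNA replicate 1 or 2, and the REL call only without NTC shRNA replicate 3 or QKI shRNA replicate 1. REL was also not called with RLE size factors, DESeq2 or limma-voom.

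**Figure D4:**
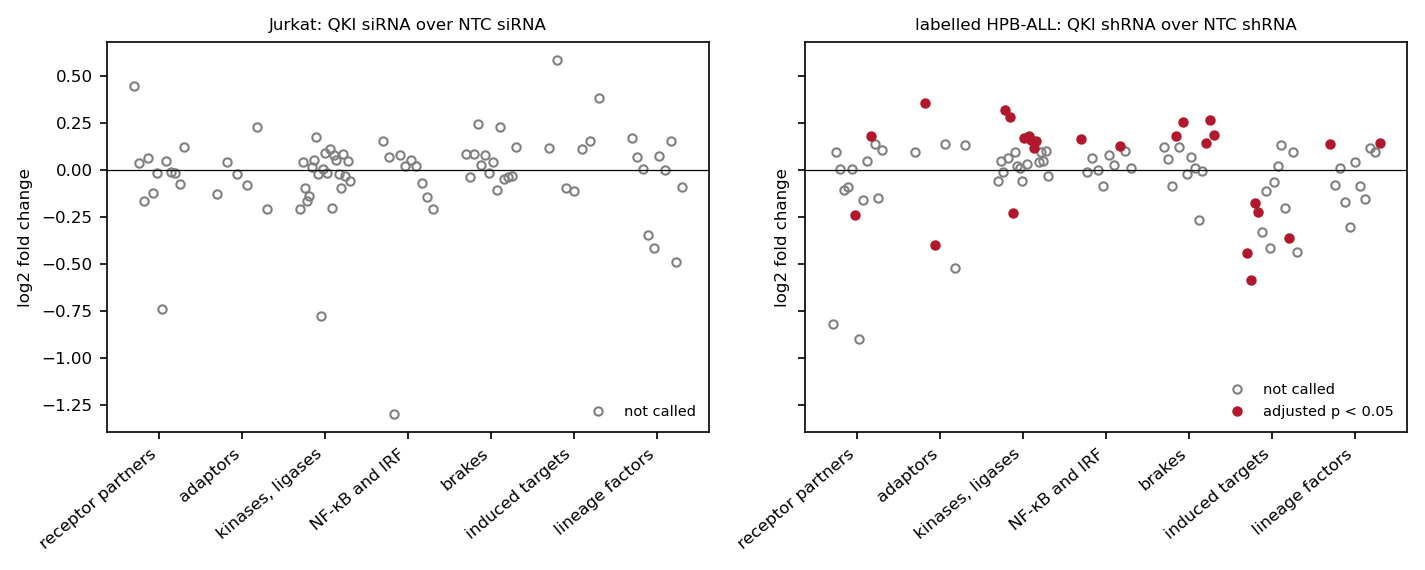
Log2 fold change of each tested gene of the 7 pathway lists, left for QKI siRNA over NTC siRNA in Jurkat and right for QKI shRNA over NTC shRNA in the libraries labelled HPB-ALL, with filled points at an edgeR adjusted p under 0.05. No point is filled in Jurkat, and on the right the filled points of the inhibitors lie above 0 and those of the induced genes below it.

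Of 11 lineage factors tested, TCF4 and CEBPA rose (log2 fold changes 0.14 each, edgeR adjusted p = 0.0172 and 0.0207), or 18.2%, and none fell; without NTC shRNA replicate 4 the count was 4. The CEBPA call was lost without QKI shRNA replicate 3 (adjusted p = 0.0552). SPI1 averaged 129 ± 2.16 CPM with QKI shRNA and 121 ± 6.49 CPM with NTC shRNA (SD, n = 4 each) and did not pass the test (0.09, adjusted p = 0.122). In the untreated lines SPI1 was at 53.9 ± 6.60 CPM in LOUCY and at most 0.0481 CPM on average elsewhere. LY86 and TLR4, which hold GAGGAA in their promoters, passed 1 CPM with QKI shRNA and with NTC shRNA. In LOUCY they averaged 0.0278 and 0.0139 CPM. ALL-SIL, poor in SPI1, averaged 2.05 CPM of LY86. Whether SPI1 bears on CD180, LY86 or TLR4 was not tested. The 3 groups with CD180 over 1 CPM, namely QKI shRNA, NTC shRNA and LOUCY, were the 3 with SPI1 over 1 CPM. IRF5, which acts below these receptors, was spread alike, at 118 CPM with QKI shRNA, 113 CPM with NTC shRNA, 122 CPM in LOUCY and at most 0.0260 CPM on average in the other untreated lines.

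The genes whose pattern was most like that of a member were sought among 13693 genes by Pearson's r of log2(CPM + 0.5) over the 10 group means, as a description; the groups share tables, lines and library kinds. For CD180 they were PLD4 (r = 0.9901), SPATA12 (0.988) and LINC02908 (0.986). For LY86 they were AHR (0.999), FCER2 (0.997) and LINC00926 (0.986). For TLR2 they were SOWAHD (0.998), PRRG4 (0.995) and CD163L1 (0.995). For TLR4, HAAO, SOWAHC and HNMT passed 0.999, but 209 genes passed 0.99, against 1 for CD180, 2 for LY86 and 5 for TLR2. TLR5 had no gene as close, with SLC29A1 (0.856), RBBP6 (0.825) and ECE1 (0.818), nor had TLR6, with PPM1M (0.946), GBP5 (0.939) and SPCS1 (0.905).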

How the data were processed

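RNA was sequenced from 40 libraries. The authors deposited raw counts of reads per gene. The submitters' processing notes name Trimmomatic 0.39, STAR 2.7.11b and GRCh38; how reads were counted, with which strand setting and which annotation, is not stated there or in the labels. Rows that name no gene, 13.0% to 15.1% of reads in the table of the libraries labelled HPB-ALL, were left out. The Jurkat control columns are headed shNTC and were taken as NTC siRNA, the sole Jurkat control in the labels. A pair of LOUCY columns, both headed Rep1, carry no number here.

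Each table was fitted on its own in R 4.3.3 with edgeR 4.0.16 (quasi-likelihood, filterByExpr, TMM, Benjamini-Hochberg over all genes tested, threshold 0.05). CPM used the TMM factors, levels per kb the union of exons in GENCODE 29, and a library at 0 a floor of 3 counts. Depth was 44.1 to 135 M counts a library (M, 1e6). No replicates agreed within counting noise (the chi-square over its degrees of freedom was 12.7 to 348). Same-numbered Jurkat libraries deviated together (correlations 0.337 to 0.556 in 4 pairs), but unlike-numbered ones reached 0.360 (-0.555 to 0.360 in 12 pairs). Replicates 3 and 4 were also the most alike in both Jurkat groups (chi-square over its degrees of freedom 35.9 with QKI siRNA and 52.0 with NTC siRNA). The numbers may thus pair the Jurkat libraries, which the labels do not state. Same-numbered libraries labelled HPB-ALL did not deviate together (-0.179 to 0.0450). Those of the lines ran from -0.124 to 0.388 in 50 pairs, and unlike-numbered ones from -0.400 to 0.234 in 150 pairs. Some same-numbered libraries of the lines may thus share a shift, which was not tested.

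The 10 genes and all lists were chosen with earlier results of these data known. Named besides the 10 genes were QKI, up to 4 called genes of a list with the smallest p, and the 3 genes most alike to each of the 6 members that reach 5 CPM in a group; partners, markers and other list genes given with values were added after their values were seen. IL3RA of the dendritic-cell list was not matched. The alternatives tried were DESeq2 1.42.0, limma-voom (limma 3.58.1), no filter, RLE size factors, the replicate block, leaving out each library, TMM over all 40 libraries and the longest transcript as length. The code was tested on simulated data.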

Additional observations from a re-analysis of the deposited data

Results flagged for a closer look

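In groups of 4 libraries, a library was looked at again where its gap to the nearest other took most of the group's range. Of 46 groups of a gene with at least 10 counts in a library, 4 met this, and chance gives about 1 in 20. TLR2 had 0.123 CPM in Jurkat QKI siRNA replicate 1 and 0 in the other 3 libraries of that group. TLR5 had 8.72 CPM in QKI shRNA replicate 3, against 7.94 to 8.07 CPM in the other QKI shRNA libraries. TLR6 had 4.91 CPM in LOUCY replicate 4, against 2.08 to 2.19 CPM in the other LOUCY libraries. TLR6 also had 1.20 CPM in TALL-1 replicate 4, against 0.176 to 0.301 CPM in the other TALL-1 libraries, and that library was the single TALL-1 library with TLR1 counts (4 counts). LOUCY replicate 4 and TALL-1 replicate 4 also stood apart as whole libraries. In TALL-1 the chi-square over its degrees of freedom was 130.3 to 139.1 in pairs with replicate 4 and 13.24 to 45.02 in pairs without it. In LOUCY it was 192.9 to 213 with replicate 4 and 14.09 to 43.22 without it. The part of this in the TLR6 values was not tested.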

How the results depend on the processing

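No direction that passed a test turned under any alternative. In Jurkat the number of genes called, 1, was 2 by DESeq2 and 9 with the replicate block, and 1 in every fit without 1 library; none of the 4 receptors was called in any. With the replicate block, the libraries labelled HPB-ALL gave 3063 genes, 22 of them in the pathway lists, where the numbers did not pair the libraries; NRROS, IRF1, REL, TAB2, TCF4 and CEBPA lost their calls in those lists, and TNF and CXCL8 gained one. Leaving out a library gave 3132 to 3808 genes, 19 to 27 of them in the pathway lists, and a log2 fold change for CD180 of -1.32 to -1.27. For the lines, the F test gave 20347 to 20527 genes without 1 library and 20936 with the block, and its largest adjusted p for any of the 7 genes over all alternatives was 5.66e-07. TMM over all 40 libraries multiplied levels by 1.13 to 1.14 in the libraries labelled HPB-ALL and 0.898 to 0.913 in Jurkat. With the longest transcript, 25 levels per kb moved past their spread. Depth limits TLR9, and TLR4 and TLR8 outside the libraries labelled HPB-ALL, which stayed near the floor of 3 counts.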
